A study of Drosophila melanogaster with 16 samples.

Results

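P1 neurons of naive male Drosophila melanogaster were described by the genes their RNA libraries held at baseline. The members were the genes with 10 or more counts in each of the 4 naive libraries, and 4824 of the 17559 genes in the tables (27.5%) met that rule. The study profiled 8 libraries by RNA sequencing, 4 from naive and 4 from mated males, and only the naive ones were analysed here. Cells came from the P1 cluster, which the labels give as 12 cells, and were drawn into a patch pipette from the brains of living males that carried fruFLP/NP2631-Gal4 together with UAS>stop>GFP/+.

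In such males GFP is made where the NP2631-Gal4 driver and a recombinase under control of the fruitless gene overlap, so the cells collected were those that the overlap marks. All males of the 4 libraries were virgins, 3 to 6 days old by the study's design text, and had been isolated for 4 to 6 days by the treatment protocol. The number of cells and of males behind a library is not given in the sources used here, nor is it stated that each library came from its own males. Each naive library carries its own number in its title, and what that number marks is not given, so library and title number cannot be told apart.

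P1 neurons are a male-specific cluster of the fly brain, made under the sex-determination genes fruitless and doublesex, and are known for starting and sustaining courtship. They gather signals that tell the male about a female, such as taste and smell of her cuticle, and pass them to the neurons that drive courtship song. The persistence of the courtship state and its regulation by earlier mating experience have also been studied in this cluster.

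The 4 naive libraries, called libraries 1 to 4, held 9162763, 6897560, 6953936 and 7915318 counts. They had 7345, 6179, 6220 and 7224 genes at 10 or more counts, and after scaling to the total of the shallowest library 7109, 6179, 6158 and 7073. The 2 sequencing runs of each library were compared gene by gene with an exact binomial test. Of 6179 to 7345 genes tested per library, 0 (0%) differed between runs at a Benjamini-Hochberg adjusted p under 0.05, and 4.35% to 4.61% did at an unadjusted p under 0.05, so runs agreed within sampling noise and were summed as 1 replicate. Levels are in counts-per-million units of the TMM-scaled library size (CPM), and levels of different genes are compared only per kilobase of exon (CPM per kb), so an order by CPM is an order of shares of counts. The reads carry no molecular identifiers, so the agreement of runs covers counting error only. The 4824 genes held 97.1% to 98.1% of a library's counts. Of these genes 1587 overlap another gene of the table, and the use of strand in counting is not given in the sources used here, so reads of overlapping genes may have been shared or dropped.

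The genes that mark P1 neurons were read in all 4 libraries. The synaptic vesicle protein gene nSyb was at 1735, 2069, 1928 and 1676 CPM in libraries 1 to 4, and elav, the pan-neuronal RNA-binding protein gene, was at 843, 1119, 875 and 967 CPM. The fruitless gene (fru), which lies at 3R:18414273-18545586 (dm6), was at 694, 819, 1030.5 and 332 CPM. It was highest in library 3 and lowest in library 4. The doublesex gene (dsx), at 3R:7924323-7967408, was at 164, 107, 72.3 and 33.0 CPM with a mean of 93.9 ± 55.5 CPM (SD, n = 4), highest in library 1 and lowest in library 4. The dsx gene overlaps lds, a gene of a DNA-dependent ATPase family, so its level may hold reads of both. All 9 markers of neurons in general were read in all 4 libraries, with a median ratio of highest to lowest library of 1.33 against 2.60 over the 4824 genes and 1.42 over those between 1000 and 10000 CPM. Of the other genes of sex determination, Sxl was at 681, 1209, 679.8 and 789 CPM, whereas tra2, ix and her were at 0.443, 0.443 and 0.739 CPM in library 3 and at 20.4 CPM or more in each other library.

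Genes that mark other cells were read in part, at levels that ran from 0 to above that of dsx. Of 10 glial markers 6 were read in all 4 libraries, with a list sum of 351, 206, 124 and 186 CPM in libraries 1 to 4. The glial transcription factor gene repo was at 5.64, 0.588, 0 and 9.70 CPM, and alrm, an astrocyte gene, was at 0 in 3 libraries and at 0.148 CPM in library 3. The highest gene of the glial list was nrv2, at 254, 146, 54.1 and 96.9 CPM, which was most of the list's sum in libraries 1, 2 and 4 and less than the rest of the list together in library 3. Gat was at 33.8, 5.15, 15.7 and 35.0 CPM, Eaat1 at 14.5, 15.0, 36.8 and 4.10 CPM and Gs2 at 18.2, 11.9, 5.62 and 30.5 CPM. Also read in all 4 were axo, at up to 22.2 CPM, and Tret1-1, at up to 8.87 CPM. The genes wrapper and moody reached 9.25 and 5.21 CPM in library 1. Of 9 fat body markers 2 were read in all 4, the lipoprotein gene apolpp at 255, 119, 319 and 209 CPM and the storage protein gene Lsp2 at 11.8, 95.3, 185 and 123 CPM. The apolpp gene overlaps Zyx. The sum of the fat body list was 290.4, 224, 546 and 341 CPM. Yp3 was at 21.5, 0.294, 22.9 and 3.98 CPM, and Yp1, Yp2, fit and Lsp1beta reached at most 10.6, 6.65, 6.18 and 4.35 CPM. Lsp1alpha and Lsp1gamma were at 0 in all 4. Of 11 photoreceptor markers 3 were read in all 4. The sum of that list, 1150.4, 1418, 1517 and 1019 CPM, was mostly the phospholipase C gene norpA at 1114, 1401, 1466 and 987 CPM. The opsin gene ninaE was at 7.66, 6.76, 34.1 and 6.84 CPM and Arr2 at 20.7, 4.85, 7.24 and 16.5 CPM. Rh4 reached 7.55 CPM in library 1 and Arr1 7.83 CPM in library 3. The genes ninaC, inaC and trp were at most at 2.61 CPM, and Rh3, Rh5 and Rh6 were under 0.4 CPM throughout. Of 9 muscle markers 4 were read in all 4, and the list summed to 62.2, 36.2, 29.3 and 46.9 CPM. Mlc1 was at 26.1, 21.0, 6.65 and 6.22 CPM and Mlc2 at 11.9, 2.65, 2.81 and 34.3 CPM. The genes bt and sls reached 5.32 and 4.88 CPM. None of 6 hemocyte markers was read in all 4, and their sum, 44.9, 0.882, 20.2 and 74.3 CPM, was mostly Pxn. Per kilobase, norpA was at 149.7, Lsp2 at 41.8, nrv2 at 38.6 and apolpp at 19.2 CPM per kb. The P1 markers dsx and elav were at 10.2 and 88.7 CPM per kb. The part of RNA from other cells in the levels above and below was not tested. In bulk libraries such as these, fewer cells of a type and less RNA per cell cannot be told apart.

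The largest shares of counts belonged to long non-coding RNAs and to genes of a homeodomain factor, a dense-core vesicle protein, the sodium pump and calmodulin. The non-coding RNA lncRNA:noe led, at 43179.7, 39429, 28967 and 43835 CPM in libraries 1 to 4, and its gene lies at 3L:17400272-17401348 on the minus strand (dm6). It was followed by lncRNA:Hsromega at 27029, 18291, 38641 and 21699 CPM, a nuclear RNA that heat shock induces, from 3R:21296127-21317836. Library 3 was the lowest for lncRNA:noe and the highest for lncRNA:Hsromega. The homeodomain factor gene pros was at 15033, 20874, 20692 and 22156 CPM from 3R:11328480-11407627, and IA-2, which codes for a dense-core vesicle protein, was at 11799, 18602, 17655 and 19262 CPM from 2L:1008378-1048053. Both were lowest in library 1. Another non-coding RNA, lncRNA:mimi at 3R:23983503-23985065, was at 10927, 10935, 13339.5 and 13874 CPM. The sodium pump was represented by its beta subunit gene nrv3 at 10356 ± 1703 CPM and its alpha subunit gene Atpalpha at 8833 ± 1412 CPM (SD, n = 4). Calmodulin (Cam), the calcium sensor, was at 7841, 12068, 8427 and 8173 CPM and stood highest in library 2.

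The rest of the 20 highest genes had mean levels between 4423 and 8626 CPM. They include 5 RNA-binding protein genes, fne, shep, sm, bru3 and mei-P26, the last a translational repressor of the TRIM-NHL family. Among them are also the Shaker potassium channel gene Sh at 6063 ± 901 CPM, the G protein gamma subunit gene Ggamma30A at 7099 ± 1719 CPM, the zinc finger gene jim, the adaptor 14-3-3zeta, the synapse-associated Sap47 and CG31221. The non-coding RNA roX1, part of the male dosage compensation complex, was at 3929.7, 4329.6, 5082 and 5123 CPM. None of the 20 had a highest-to-lowest ratio above 2.11. Per kilobase of exon, lncRNA:noe at 36075 ± 6379 CPM per kb and lncRNA:mimi at 7849.6 ± 998 CPM per kb (SD, n = 4) again led. They were followed by short genes of housekeeping function: the histone gene His4r at 2899, the cytochrome oxidase gene COX7B at 2216 and the ribosomal protein gene RpL39 at 2144 CPM per kb. The pump subunit nrv3 at 2171, CG31221 at 1982, 14-3-3zeta at 1667, IA-2 at 1641 and the growth factor gene miple1 at 1625 CPM per kb completed the 10 highest. The same 10 genes were the highest 10 with the length of the longest transcript in place of all exons. All 4 libraries placed 15.1% to 16.6% of their counts in their own 10 highest genes. Non-coding RNAs were 84 of the 4824 genes and held 8.98% of the summed level, and the 4602 protein-coding genes held 87.7%.

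**Figure D1:**
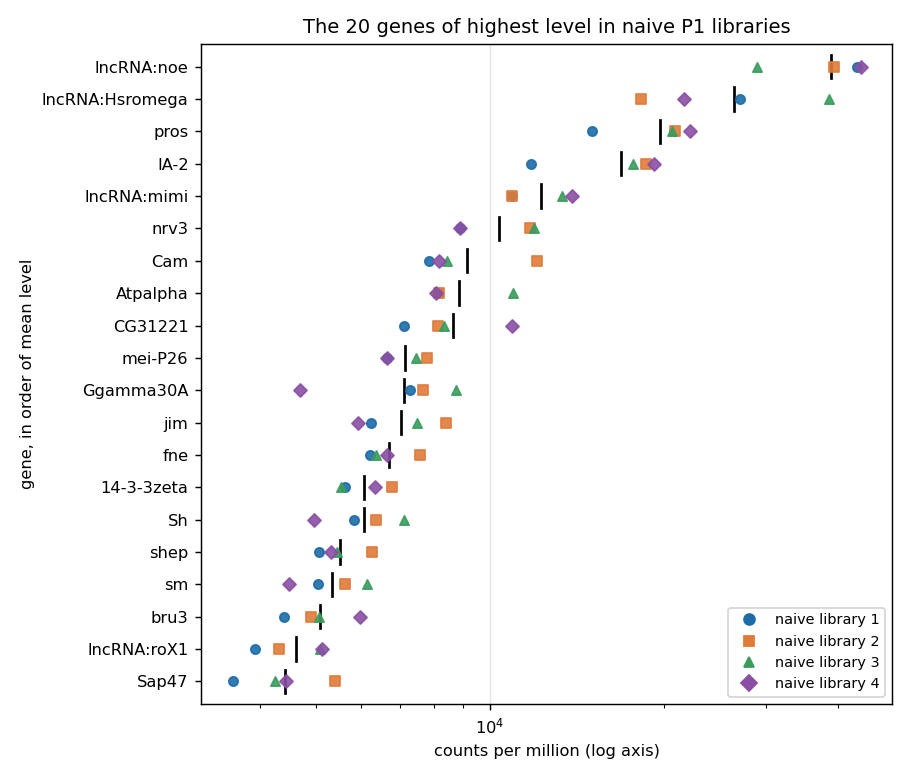
Level in CPM (log axis) of the 20 genes of highest mean level, with 1 point per naive library and a bar at the mean. The points of lncRNA:noe lie between 28967 and 43835 CPM, and no gene spreads over more than 2.11-fold.

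Genes of synaptic release were read at high level. Of 23 such genes 21 were read in all 4 libraries, at a median level of 152 CPM per kb against 22.1 over the 4824 genes. They took 2.35% to 2.66% of a library's counts. None of the 21 had a ratio of highest to lowest library of 4 or more, and few genes of such levels did: 4.27% of all genes between 100 and 1000 CPM and 0.685% between 1000 and 10000 CPM. Snap25, a membrane-fusion SNARE gene, was at 2768, 3176, 2771 and 2696 CPM and the calcium sensor Syt1 at 2317, 2879.8, 4049 and 2783 CPM. The active-zone scaffold gene brp was at 808, 792, 787 and 696 CPM, a spread of 1.16-fold. The 2 genes stnA and stnB, which are annotated as overlapping, were listed at 0 in all 4 libraries. Genes of dense-core vesicles and peptide processing were read in all 4 for 13 of 13 with a median ratio of 1.61. RNA-binding proteins of neurons were read for 13 of 14, with fne at 6211, 7566, 6347 and 6653 CPM.

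Genes of acetylcholine transmission were read in every library. The choline acetyltransferase gene ChAT was at 365, 571, 389 and 583 CPM, but it shares its locus with VAChT, which was not analysed here, so reads of the pair cannot be told apart. The acetylcholinesterase gene Ace was at 1403, 1822, 2259 and 1765 CPM and the choline transporter gene ChT at 746, 1561, 984 and 1434 CPM. Both were lowest in library 1. The vesicular glutamate transporter gene VGlut was at 76.4, 552, 480.3 and 484 CPM, with library 1 far below the other 3. Per kilobase, ChAT was at 119 and VGlut at 69.6 CPM per kb. For GABA, VGAT was at 39.5, 67.2, 96.6 and 44.5 CPM and the synthesis gene Gad1 at 37.5, 0.147, 19.2 and 0.622 CPM, so Gad1 was near 0 in libraries 2 and 4. Among the monoamine genes, the decarboxylase gene Ddc was even, at 2008, 1377, 1372 and 1708 CPM. The vesicular monoamine transporter gene Vmat was at 1229, 927, 114 and 281 CPM and the serotonin transporter gene SerT at 101, 121, 3.10 and 14.7 CPM. For both genes libraries 1 and 2 were higher than libraries 3 and 4. The octopamine genes Tbh and Tdc2 and the dopamine transporter gene DAT were highest in library 1, at 138, 41.2 and 34.7 CPM, against at most 28.8, 12.3 and 2.51 CPM elsewhere. The tyrosine hydroxylase gene ple was at 15.5, 0.441, 3.99 and 39.7 CPM.

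Receptors for fast transmitters ranged from even to uneven across libraries. Of 10 nicotinic receptor subunits 9 were read in all 4 libraries, with a median ratio of 1.39, and nAChRbeta3 was at 0 in all 4. The subunit gene nAChRbeta2 was the uneven one, at 286, 55.9, 189.6 and 149 CPM. The subunit genes nAChRalpha6 and nAChRbeta1 were at 1873 ± 249 CPM and 1742 ± 180.2 CPM (SD, n = 4). The GABA-gated chloride channel gene Rdl was at 3394, 3949, 5303 and 3389.5 CPM, and the glutamate-gated chloride channel gene GluClalpha at 1209.6, 1528, 1755 and 1477 CPM. Rdl and GluClalpha were both highest in library 3. Of 15 glutamate receptor genes 9 were read in all 4, with a median ratio of 2.08, and GluRIIE at 64.9, 15.1, 18.9 and 45.8 CPM and Ekar at 5.64, 2.94, 1.92 and 1.37 CPM had ratios of 4 or more. GluRIIE overlaps GluRIID, which is listed at 0 in all 4. Of 20 amine and muscarinic receptors 18 were read in all 4. The dopamine and ecdysteroid receptor gene DopEcR was at 733, 994, 1332 and 953 CPM and the D2-like receptor gene Dop2R at 1090.4, 1259, 546 and 758 CPM. The octopamine receptor gene Octbeta3R was at 214, 253, 249 and 234 CPM, a spread of 1.19-fold. Receptors for peptides were low. Of 38 such genes 19 were read in all 4, at a median of 9.11 CPM per kb, and 11 of 19 had a ratio of 4 or more, against 31.9% of all genes read in all 4 libraries and 45.4% of those between 10 and 100 CPM, where the list's median of 29.3 CPM lay. Without library 2 that count was 7 of 20, against 24.5% of all genes.

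Ion channels and pumps were read mostly in all 4 libraries. Of 20 potassium channel genes 15 were, led by Sh, by the calcium-activated slo at 1959, 2239, 1929 and 2159.7 CPM and by SK at 1319 ± 189.7 CPM. Of 19 genes of sodium, calcium and other cation channels 12 were, including the presynaptic calcium channel gene cac at 1310.3, 1759, 2261 and 1849 CPM. For 8 of those 12, library 3 was the highest, as it was for 29.9% of all genes read in all 4. The sodium channel gene para was not analysed here.

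A minority of neuropeptide precursors was read in all libraries, as was a minority of all genes in the tables. Of 47 precursor genes 8 were read at 10 or more counts in all 4 libraries and 28 in at least 1, and 9 were at 0 in all 4. The genes read in all 4 were 17.0% of the list, against 27.5% of all genes in the tables and 33.6% of protein-coding genes. Those read in at least 1 were 59.6% of the list, against 49.9% of all genes in the tables. The feeding-related peptide gene sNPF was at 483, 431, 173 and 605 CPM. The diuretic hormone genes Dh44 and Dh31 were at 317, 353, 378 and 238 CPM and at 299.7, 111, 108 and 86.4 CPM. Dh44 was even across libraries, and Dh31 stood highest in library 1. Nplp1 was at 53.6, 84.6, 167 and 204 CPM, CCHa2 at 61.0, 137, 116 and 50.3 CPM and the glycoprotein hormone gene Gpb5 at 137, 79.7, 8.42 and 71.5 CPM. The allatostatin C gene AstC was at 215, 547, 18.5 and 212 CPM and was lowest in library 3.

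**Figure D2:**
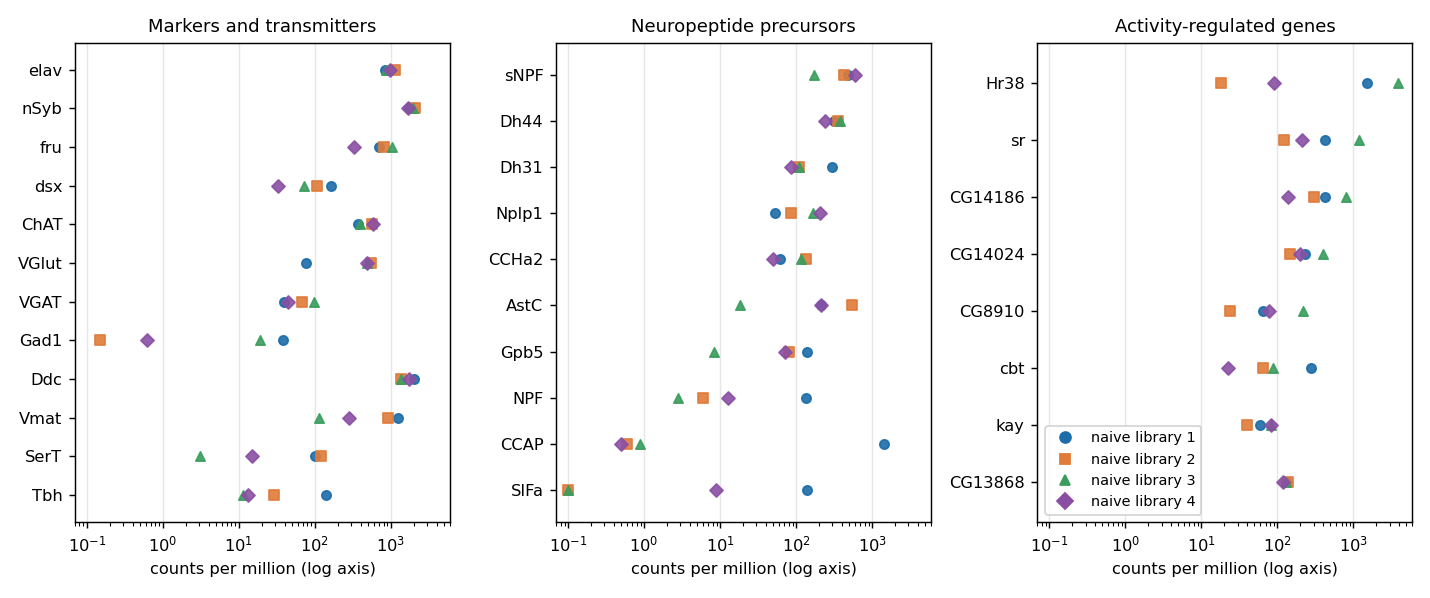
Level in CPM (log axis; a 0 is drawn at 0.1) of markers and transmitter genes, neuropeptide precursors and activity-regulated genes, with 1 point per naive library. The elav and nSyb points lie close together, whereas CCAP lies at 1433 CPM in library 1 and under 0.9 CPM in the others, and Hr38 spans 18.2 to 3820.2 CPM.

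Genes that wire neurons were broadly present. All 21 dpr genes, whose products are cell-surface partners of the DIP proteins, were read in all 4 libraries, and dpr7 was the highest at 928, 1678, 727 and 1141 CPM. Of 11 DIP genes 9 were, at a median of 11.1 CPM per kb against 38.0 for dpr genes, and the DIP median ratio was 4.92 against 1.83. Over all genes between 10 and 100 CPM, where the DIP median of 31.9 CPM lay, the median ratio was 3.58. Between 100 and 1000 CPM, where the dpr median of 156 CPM lay, it was 1.75. Without libraries 1, 2, 3 and 4 in turn the DIP median ratio was 4.40, 4.12, 2.33 and 2.58. Over all genes it was 2.23, 2.17, 2.05 and 2.28. Among beat and side genes 19 of 22 were read in all 4, led by beat-VII at 851, 989, 1405 and 1035 CPM. Of 43 guidance and adhesion genes 41 were, with the receptor gene Lrp4 at 2351, 2504, 2381 and 2706 CPM, a spread of 1.15-fold.

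A minority of the homeobox transcription factors was read in all libraries, as was a minority of all genes in the tables. Of 86 homeobox genes 18 were read in all 4 libraries, and 49 had 3 counts or fewer in each. The genes read in all 4 were 20.9% of the family, against 27.5% of all genes in the tables and 33.6% of protein-coding genes. Those with 3 counts or fewer in each were 56.98% of the family, against 44.8% of all genes in the tables. The read ones were led, after pros, by hth at 1691, 2389, 1658 and 1733 CPM and Lim1 at 722, 968, 516 and 746 CPM, which pattern neurons and their identity. The genes otp and Optix were at 418, 566, 450.3 and 177 CPM and at 449, 311, 378 and 264 CPM, and toy was at 214, 141, 22.0 and 150.1 CPM, lowest in library 3. Hox genes of the trunk were near 0: Antp, Ubx and Abd-B had at most 4 counts in any library, and abd-A had 21 counts in library 1 and 0 in the other 3. All 13 genes of hormone response were read in all 4, and 6 of 10 clock genes were. The clock-output factor gene Pdp1 was at 1449, 2165, 2295 and 1746 CPM, while the core clock gene per was at 15.7, 0, 0 and 7.84 CPM and cry at 5.85, 0.441, 0.443 and 0.373 CPM. Of the dosage compensation genes, roX2 was at 449, 678, 461 and 600.4 CPM, and all 7 genes of that list were read in all 4.

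Housekeeping classes ranged from even to uneven. Cytoplasmic ribosomal proteins were read for 78 of 88, with a median ratio of 1.601. Nuclear genes of oxidative phosphorylation were read for 63 of 87 with a median ratio of 1.76. Proteasome subunits were read for 29 of 34 with a median ratio of 5.01, and 19 of the 29 had a ratio of 4 or more, against 31.9% of all genes read in all 4 and 45.4% of those between 10 and 100 CPM, where the list's median of 31.0 CPM lay. In library 2 the median proteasome gene stood at 52.1% of its mean over libraries and in library 3 at 128%. Without library 2 the proteasome count at a ratio of 4 or more was 8 of 29, against 24.5% of all genes, and the median ratio was 2.21 without library 2 and 3.20 without library 3. Aminoacyl-tRNA synthetases were read for 10 of 30 (33.3%), against 27.5% of all genes in the tables and 33.6% of protein-coding genes. Of those 10 synthetases 7 were highest in library 3, against 29.9% of all genes read in all 4. The median level of proteasome genes read in all 4 was 25.1 CPM per kb and that of synthetases 6.19, against 244 CPM per kb for ribosomal proteins.

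**Figure D3:**
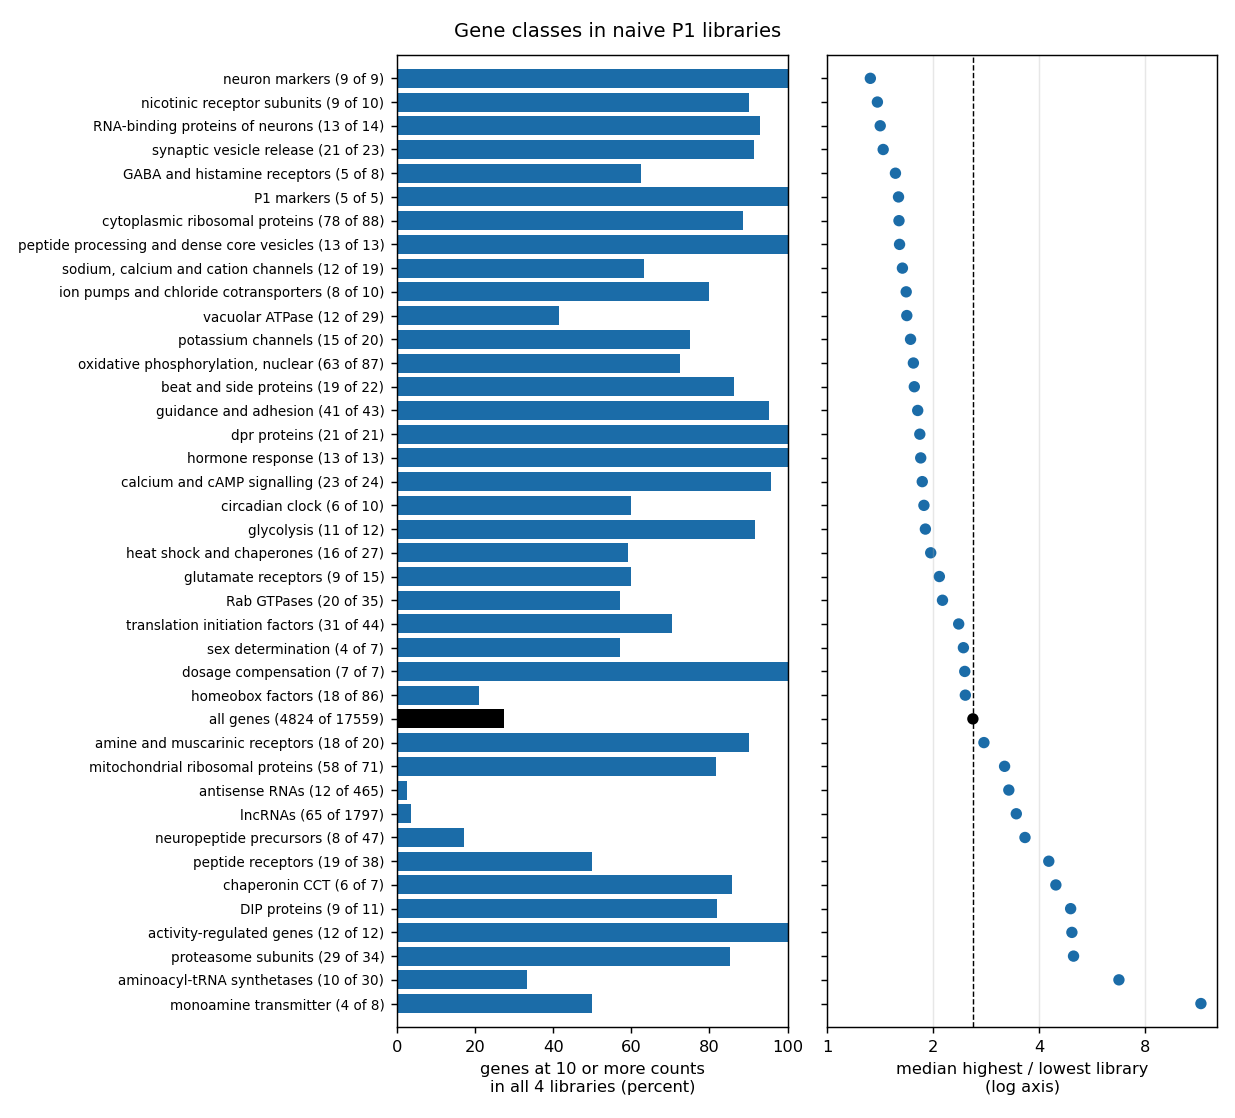
Share of each gene list read at 10 or more counts in all 4 naive libraries (left, percent) and median ratio of highest to lowest library among those genes (right, log axis; the dashed line and black marks are all genes). Lists with fewer than 4 genes read in all 4 and lists of other cells are left out. Lists of synaptic release, nicotinic receptors and channels lie left of the line at 2.60. Their median levels lay between 100 and 1000 CPM, where the median ratio over all genes was 1.75. Lists of proteasome subunits, synthetases, monoamine transmitter, peptide receptors, neuropeptide precursors, DIP proteins and activity-regulated genes lie to the right of the line. So do those of amine and muscarinic receptors, mitochondrial ribosomal proteins, chaperonin CCT, lncRNAs and antisense RNAs. Between 10 and 100 CPM the median ratio over all genes was 3.58. The median levels of mitochondrial ribosomal proteins, lncRNAs and antisense RNAs lay there, and their ratios of 3.19, 3.45 and 3.28 were lower. Those of proteasome subunits, synthetases, chaperonin CCT, peptide receptors and DIP proteins lay there too, with higher ratios. The other lists right of the line had median levels between 100 and 1000 CPM.

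The libraries differed from each other in most genes. In edgeR's quasi-likelihood F test over the 8 runs with library as the factor, 4770 of 4824 genes (98.9%) differed between libraries at a Benjamini-Hochberg adjusted p under 0.05. That test compares libraries with the error of repeat sequencing, not conditions or males, and its p-values measure only the spread between runs of 1 library, which is technical. A ratio of highest to lowest library of 4 or more was met by 1539 of 4824 genes (31.9%), and the median ratio was 2.60. The biological coefficient of variation, edgeR's measure of spread over the 4 libraries, was 0.553. It holds differences from cell collection and amplification as well as any between males, which cannot be told apart here.

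Spread was narrower among genes of higher level. The 146 genes between 1000 and 10000 CPM had a median ratio of 1.42, and 0.685% of them had a ratio of 4 or more. Of 1477 genes between 100 and 1000 CPM 4.27% did, and of 2855 between 10 and 100 CPM 45.4% did. Among genes of 100 CPM or more on average, 64 of 1629 (3.93%) had a ratio of 4 or more. Library 3 was the highest for 26 and the lowest for 27 of those 64. Over all 4824 genes it was the highest for 1441 and the lowest for 1444. Of the 1539 genes with a ratio of 4 or more it was the highest for 485 and the lowest for 492. Pearson correlations of log2 CPM across the 4824 genes, which share library preparation and are not independent, ran from 0.795 for libraries 2 and 3 to 0.886 for libraries 1 and 4.

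**Figure D4:**
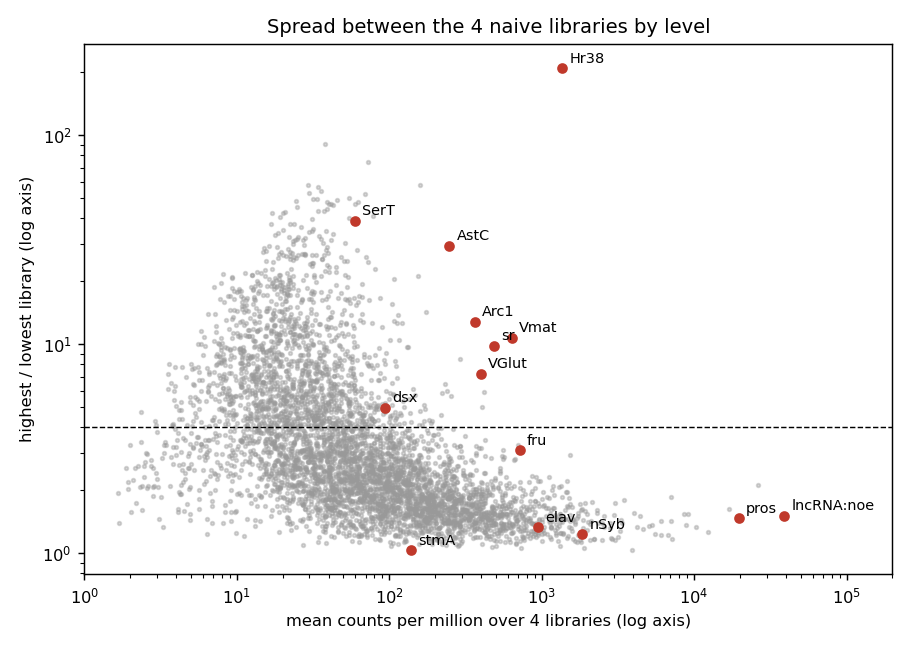
Ratio of the highest to the lowest naive library against mean CPM for the 4824 genes, both on log axes, with named genes in red and a dashed line at a ratio of 4. The spread narrows as level rises, and Hr38, AstC, Arc1, Vmat, sr and VGlut lie above the line at levels where most genes lie under it.

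The gene of the largest spread among those of 100 CPM or more was Hr38, which codes for a nuclear receptor that neuronal activity induces. It was at 1518, 18.2, 3820.2 and 90.7 CPM, so libraries 3 and 1 were far above libraries 4 and 2, with a ratio of 209. The zinc finger gene sr, another activity-induced factor gene, was at 423, 121, 1192 and 211 CPM, in the same order of libraries. CG14186 was at 424, 307, 809 and 137 CPM, CG14024 at 229, 148, 398 and 202 CPM and CG8910 at 64.2, 23.7, 215 and 76.9 CPM, all highest in library 3. The cabut gene cbt was highest in library 1, at 279, 64.6, 87.2 and 22.1 CPM. Of the 12 genes of an activity-regulated list 7 had a ratio of 4 or more, against 31.9% of all genes read in all 4, 45.4% of those between 10 and 100 CPM and 4.27% of those between 100 and 1000 CPM. The median level of the list was 112 CPM. Without library 3 that count was 3 of 12, against 21.1% of all genes. The list sum was 3334, 1121, 6897 and 1147 CPM in libraries 1 to 4. Hr38 and sr together made up most of that sum in libraries 1 and 3, and not in libraries 2 and 4. The median gene of the list stood at 92.3%, 67.1%, 114% and 81.8% of its mean over the libraries. Not all listed genes varied widely: CG13868 was at 131, 136, 128 and 119.5 CPM. The Fos homolog kay was at 60.1, 40.3, 82.5 and 81.6 CPM, highest in library 3 and lowest in library 2. The synaptic capsid gene Arc1 was at 64.0, 377, 819.7 and 199 CPM, highest in library 3 and lowest in library 1.

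After Hr38, the genes of largest ratio were CG9686, AstC, CG6766, FBgn0026749, Lsp2, CG12547, Trs20, Sol1 and Arc1, at ratios from 57.7 down to 12.8. CG9686, AstC, CG12547, the TRAPP subunit gene Trs20 and Sol1 were lowest in library 3. CG9686 was at 333, 196, 5.76 and 103 CPM and Trs20 at 121, 168, 12.1 and 159 CPM. CG6766 and FBgn0026749 were lowest in library 2, where CG6766 was at 13.8 against 294 CPM in library 3. The steadiest genes of 100 CPM or more included stmA, the EFR3 homolog, at 139.8, 140.0, 137 and 142 CPM, a coefficient of variation of 1.44%. The unnamed gene FBgn0037636 was at 3966, 3807, 3873 and 3902 CPM. They were followed by the kinase gene Lk6, the RNA-binding Unr, the kinesin gene unc-104, the exchange factor gene trio, the cytoskeletal linker gene shot, CG8289, Zyx and CG2258, with coefficients up to 3.96%. Both sets were picked for these values, which are therefore a description.

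Some genes were higher in 1 library than in the others by a wide margin, which was smaller for those of library 4. In library 1 the cardioactive peptide gene CCAP was at 1433 CPM and at 0.588, 0.887 and 0.498 CPM in the others. The peptide gene SIFa was at 138, 0, 0 and 8.83 CPM, and NPF at 134, 5.88, 2.81 and 12.8 CPM, so both were highest in library 1. CG40470 was at 119, 0.882, 5.47 and 6.09 CPM. In library 2 the acetyltransferase gene Naa60 was at 113 CPM, the phospholipase gene iPLA2-VIA at 126 and the peptide receptor gene FMRFaR at 126 CPM. The next highest libraries for them were at 14.6, 30.1 and 34.5 CPM. In library 3 CG10376 was at 100.3 and msl-1 at 123 CPM, against at most 12.6 and 18.2 CPM elsewhere. In library 4 the complex I gene NdufV3 was at 42.4, 45.9, 36.2 and 120.4 CPM and the SOX factor gene D at 20.2, 50.9, 75.2 and 194 CPM in libraries 1 to 4, and Coa7 at 68.3, 42.4, 3.10 and 163 CPM. The ratios of library 4 to the next highest library were 2.62, 2.58 and 2.38 for NdufV3, D and Coa7.

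Genes could also be missing from 1 library. Libraries 2 and 3 had under 10 counts for 499 and 548 genes that the other 3 libraries held at 10 or more, against 130 and 116 for libraries 1 and 4. In libraries 2 and 3, 164 and 126 of those genes were at 0. The missing genes had a median level of 12.0 and 12.8 CPM in the other libraries. Libraries 2 and 3 were also the shallowest, and the part of depth in these counts was not tested beyond the scaling given above.

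Chromosome 4, the small dot chromosome, had the largest share of genes read and the highest median level of the arms. Of its 79 protein-coding genes 69 (87.3%) were read in all 4 libraries, against 38.1% on X and 31.1% to 34.2% on the arms of chromosomes 2 and 3. Counting all gene types, 76 of 110 were read there, and single libraries held 74.5% to 79.1% of them at 10 or more counts. The median level of the read genes of chromosome 4 was 70.1 CPM per kb, against 20.2 to 23.0 on the other arms. CaMKII, the calcium-dependent kinase gene, was at 2817, 3193, 3350.3 and 3264 CPM and unc-13, a vesicle priming gene, at 2167, 1970.2, 2849.9 and 1620.5 CPM. Both lie on chromosome 4 and were chosen after their values were seen, and the chromosome pattern itself was seen in these data first. On the Y chromosome none of 71 genes was read in all 4. Each library listed the 37 mitochondrially encoded genes at 0. Whether reads of these genes were aligned and counted was not tested, so these values are not read as levels.

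**Figure D5:**
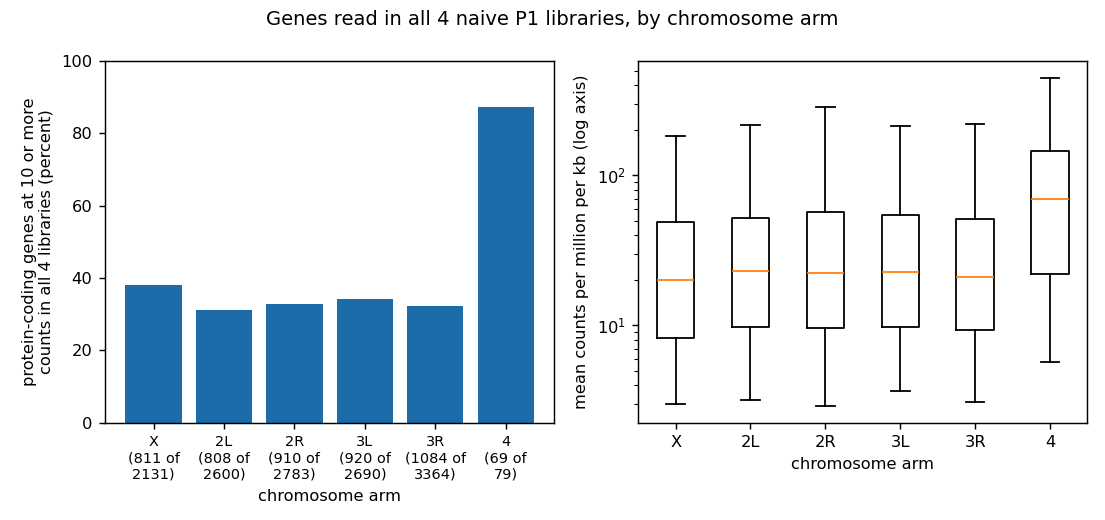
Share of protein-coding genes read at 10 or more counts in all 4 naive libraries by chromosome arm (left, percent), and mean CPM per kb of all genes read in all 4 (right, log axis; boxes span the quartiles with the median, whiskers the 5th to 95th percentile). Chromosome 4 stands at 87.3% and at a median of 70.1 CPM per kb.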

How the data were processed

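Per the labels' protocols, cDNA from the SMARTer ultra-low kit went through 15 cycles of amplification, was cut to about 200 bp, and received barcodes and 12 more cycles. Lanes held 12 samples, and each library ran in 2 lanes. The authors deposited raw read counts per gene for each run and their sum. HISAT2 2.2.1 and featureCounts 1.6.2 are named in the submitters' processing notes, with builds dm6 and BDGP6, and the annotation release and strand setting are not given in the sources used here. Rows with a gene ID but no symbol, 306 of 17559, held 3.13% to 3.28% of a library's counts and were kept.

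Levels, spread and the test among libraries were computed here with edgeR 4.0.16 in R 4.3.3 (TMM, 10 or more counts in all 4 libraries, robust quasi-likelihood fit, adjusted p threshold 0.05), after checks on simulated data. DESeq2 1.42.0, other scalings, floors of 3 and 30 counts, single runs and leaving out each library were alternatives. Exon lengths, coordinates and overlaps came from Ensembl release 115 on the dm6 coordinates, and coordinates are 1-based. Genes were named by rule: the 20 highest, the 10 highest per kb, the 10 of largest and of smallest spread at 100 CPM or more, 3 per library, and list members; 1 gene that the rule names is not reported here. The members and lists were chosen with earlier results of these data known.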

Additional observations from a re-analysis of the deposited data

Results flagged for a closer look

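Among the 124 genes whose levels were examined, 19 had 1 library that stood apart: its gap to the nearest other library divided by the range of all 4 was past Dixon's critical value at the 95% level. Chance sets about 1 in 20 groups apart where values are normally distributed, which was not tested for these levels in CPM. Of the 19 genes 18 stood apart at the high end and 1 at the low end. By rule, 11 of the 124 genes were chosen because they were high in 1 library, and 8 of the 19 are among those 11, so for these the gap restates how they were chosen. Of the other 113 genes 11 stood apart, and some of these genes were also chosen for their values. In library 1 the highest value did so for CCAP (0.9997), SIFa (0.936), CG40470 (0.956), NPF (0.924), DAT (0.928), Tbh (0.862), Dh31 (0.886) and cry (0.987), and the lowest value for VGlut (0.849). In library 2 it was the highest value of Snap25 (0.845), Cam (0.861), hth (0.897), Naa60 (0.907) and FMRFaR (0.915). In library 3 it was the highest value of Atpalpha (0.959), ninaE (0.967), CG10376 (0.918) and msl-1 (0.872). In library 4 NdufV3 stood apart (0.885). These numbers are the gap as a share of the range, and the levels in CPM stand in the text above.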

How the results depend on the processing

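The number of genes read in all 4 libraries, 4824, was 5606 at a floor of 3 counts and 4127 at 30, 4755 at an equal CPM floor, and 4391 and 4405 in single runs. Without each library in turn it ran from 4940 to 5372. The number that differed between libraries was 4663 with DESeq2, 4765 and 4768 with other scalings, 4763 to 5109 without each library, and 8872 of 12057 with no filter on low counts, where more genes were tested. A ratio of 4 or more was met by 1539 genes, by 1135 to 1304 without each library, and by 953 of 4127 at a floor of 30 counts, which removes low genes. The biological coefficient of variation, 0.553, was 0.533 to 0.589 without each library, 0.472 at 30 counts and 1.16 with no filter. The median level, 54.3 CPM, stayed between 53.5 and 54.6 CPM without each library. Over the 124 genes whose levels were recomputed, other scalings moved none by more than the SD between libraries. Without library 1 the mean of 13 of them changed by over 1.5 times, as did 5, 7 and 4 without libraries 2, 3 and 4. With the longest transcript in place of all exons 27 of 109 levels per kb moved by more than the SD. No paired analysis was possible because no groups were compared.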

Other observations

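Calcium and cAMP signalling genes were read for 23 of 24 in all 4 libraries and took 1.95% to 2.44% of a library's counts. After Cam and CaMKII, the phosphodiesterase gene dnc was at 2079, 1768, 1408 and 1521 CPM and the regulatory calcineurin subunit gene CanB at 813, 862, 1001 and 969 CPM. The catalytic subunit of protein kinase A, Pka-C1, was at 1306, 558, 745 and 826 CPM and was highest in library 1. Of 8 innexin genes, which code for gap junction proteins, shakB at 813, 674, 989 and 786 CPM and Inx2 at 31.3, 18.4, 8.13 and 22.8 CPM were read in all 4, while Inx5, Inx6 and Inx7 were listed at 0 throughout. Among the glutamate receptors, the NMDA receptor subunit genes Nmdar1 and Nmdar2 were at 122, 185, 156 and 189.9 CPM and at 77.0, 244, 193 and 196 CPM, and GluRIB was at 575, 435, 176 and 289 CPM. Library 1 was the lowest for both NMDA subunits and the highest for GluRIB.

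Genes of energy supply were read for 11 of 12 in glycolysis and 12 of 29 in the vacuolar ATPase. The aldolase gene Ald1 was at 810.3, 977, 1484 and 1178 CPM, and the proton pump subunit gene Vha16-1 was at 1979, 1426, 2324 and 1624 CPM. Of 27 heat shock and chaperone genes 16 were read in all 4, with Hsp83 at 703, 353, 986 and 608 CPM and Hsp70Bb, which has near-identical copies that may share its reads, at 213, 225, 169 and 205 CPM. Hsp83 was highest in library 3 and lowest in library 2. Genes known from mushroom body neurons were read for 4 of 6, the factor gene Mef2 at 248, 139, 256 and 197 CPM and dac at 101, 215, 102 and 228 CPM, while prt was at 42.0, 34.1, 0.296 and 25.3 CPM. These groups were described by counts and levels alone, with no test.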
